A study of Mus musculus with 4 samples.

Results

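The genes described here are 34 genes of glycolysis and of the hypoxia response, taken by name from a list and by no threshold on their values, out of 21840 genes in the table. They comprise 17 enzymes of the steps from glucose to lactate, 3 transporters, 3 regulatory kinases, 10 genes regulated by the hypoxia-inducible factor (HIF) and Hif1a, which encodes the oxygen-regulated subunit of that factor. All 34 were in the table, and 33 reached the mean of 10 normalized counts over the 4 libraries at which genes were tested; Slc16a3 did not. RNA was sequenced from wild-type 4T1 cells, an epithelial tumor line derived from a mouse mammary carcinoma, after recombinant IL-17A (rIL17, 2 libraries) or after phosphate-buffered saline (PBS, 2 libraries). The line was grown in RPMI 1640 with serum and antibiotics in both groups, with no oxygen tension, dose or time of treatment stated. The labels do not tie the libraries to separate cultures, and the p-values below then reflect a spread between libraries that may be technical.

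Glycolysis splits glucose into pyruvate in the cytosol, and tumor cells commonly reduce much of that pyruvate to lactate and export it even when oxygen is present. HIF is a dimer of an oxygen-labile alpha subunit and the stable subunit encoded by Arnt; prolyl hydroxylases mark the alpha subunit for destruction while oxygen lasts, and the dimer otherwise binds DNA at a core of the letters ACGTG and raises transcription of glycolytic and other genes. Because HIF-1 alpha is controlled mainly as a protein, the amount of Hif1a RNA is not a measure of HIF activity. In bulk RNA, fewer cells of a type and less RNA per cell cannot be told apart.

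The HIF core sequence was common in front of these genes. Promoter windows of 250 bases before to 50 bases after the start, from RefSeq (GRCm38.p6), were found for 33 of the 34 genes, with Ndrg1 named only, and 23 of the 33 (69.7%) held ACGTG on either strand in at least 1 window. Of all 27025 genes with a window of the same length 21.8% held it, and of the 9594 tested genes with a window 29.7%. These shares were not matched for the GC content of the windows. Nor were they matched for windows per gene, with 46 windows for the 33 genes and 32851 for the 27025. By role, ACGTG was present for 10 of 17 enzymes, 3 of 3 transporters, 1 of 3 regulatory kinases, Hif1a and 8 of 9 HIF-regulated genes, with Adm the one without it. A match describes letters and not a bound site, and its absence from the window says nothing of the factor. The windows of 4 genes are printed, 5′ to 3′ on the strand of the gene, because the comparison below turns on Pfkfb3, Hif1a and Bnip3 and because Ldha, the most abundant of the genes per length, held the most matches. They lie at chr2:11553880-11554179 (minus strand, Pfkfb3), chr12:73907617-73907916 (plus strand, Hif1a), chr7:138909457-138909756 (minus strand, Bnip3) and chr7:46845554-46845853 (plus strand, Ldha); capitals mark each ACGTG or its reverse complement CACGT, or the palindrome CACGTG, which holds both and was counted once.
Pfkfb3: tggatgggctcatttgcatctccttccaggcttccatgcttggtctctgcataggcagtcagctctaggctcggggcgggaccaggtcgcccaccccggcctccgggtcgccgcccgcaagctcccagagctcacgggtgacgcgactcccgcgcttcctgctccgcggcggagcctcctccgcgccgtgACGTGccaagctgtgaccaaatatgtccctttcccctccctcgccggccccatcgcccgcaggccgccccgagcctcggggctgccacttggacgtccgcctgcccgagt
Hif1a: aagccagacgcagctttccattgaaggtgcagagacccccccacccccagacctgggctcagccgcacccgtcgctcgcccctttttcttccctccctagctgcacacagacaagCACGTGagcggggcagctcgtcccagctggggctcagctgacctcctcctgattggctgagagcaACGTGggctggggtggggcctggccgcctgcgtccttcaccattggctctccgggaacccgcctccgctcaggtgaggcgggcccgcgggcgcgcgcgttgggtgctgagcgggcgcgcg
Bnip3: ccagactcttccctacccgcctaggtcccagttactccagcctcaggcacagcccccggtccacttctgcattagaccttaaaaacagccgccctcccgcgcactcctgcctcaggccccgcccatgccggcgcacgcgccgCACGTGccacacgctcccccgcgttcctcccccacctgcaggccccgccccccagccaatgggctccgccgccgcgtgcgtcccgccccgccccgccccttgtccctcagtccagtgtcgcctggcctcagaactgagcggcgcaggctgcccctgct
Ldha: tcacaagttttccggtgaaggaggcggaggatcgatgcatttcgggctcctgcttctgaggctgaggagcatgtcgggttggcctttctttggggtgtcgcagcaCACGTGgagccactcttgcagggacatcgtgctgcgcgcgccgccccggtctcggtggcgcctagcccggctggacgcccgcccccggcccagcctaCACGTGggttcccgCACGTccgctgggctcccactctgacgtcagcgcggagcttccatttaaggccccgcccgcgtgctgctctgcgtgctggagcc
Pfkfb3 and Bnip3 each had 1 match, Hif1a 2 and Ldha 3. Where a gene had several windows, the one with the most matches was taken.

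The main genes of the steps from aldolase onward, Gapdh apart, were the most abundant of these RNAs. Per kb of merged exons, Ldha, which encodes the lactate dehydrogenase subunit that favors lactate formation, averaged 12200 normalized counts in rIL17 and 12100 in PBS, and Pkm, encoding pyruvate kinase, averaged 10900 in rIL17 and 10600 in PBS. On the same per-kb scale, Aldoa (aldolase A) stood at 10300 in rIL17 and 9930 in PBS, Pgk1 (phosphoglycerate kinase) at 9610 in rIL17 and 9250 in PBS, and Eno1 (enolase 1) at 7260 in rIL17 and 7360 in PBS. Tpi1 (triosephosphate isomerase) followed at 6290 per kb in rIL17 and 6190 in PBS, and Pgam1 (phosphoglycerate mutase) at 4370 in rIL17 and 4440 in PBS. The first committed steps were lower, with 1400 per kb in rIL17 and 1310 in PBS for Pfkl, the liver-type subunit of phosphofructokinase, and 712 in rIL17 and 617 in PBS for Hk2, the hexokinase common in tumors. At the other end, Slc16a3, the gene of the lactate exporter MCT4, had 3.0 and 9.0 normalized counts in the rIL17 libraries and 2.9 and 15.9 in the PBS libraries, so that replicate 1 of each group lay at about 3 reads and replicate 2 above that level. Lactate and pyruvate transport was represented instead by Slc16a1, the gene of MCT1, at 885 per kb in rIL17 and 732 in PBS. These cells thus had RNA for every step from hexokinase to lactate dehydrogenase in both groups, with very little for MCT4.

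**Figure D1:**
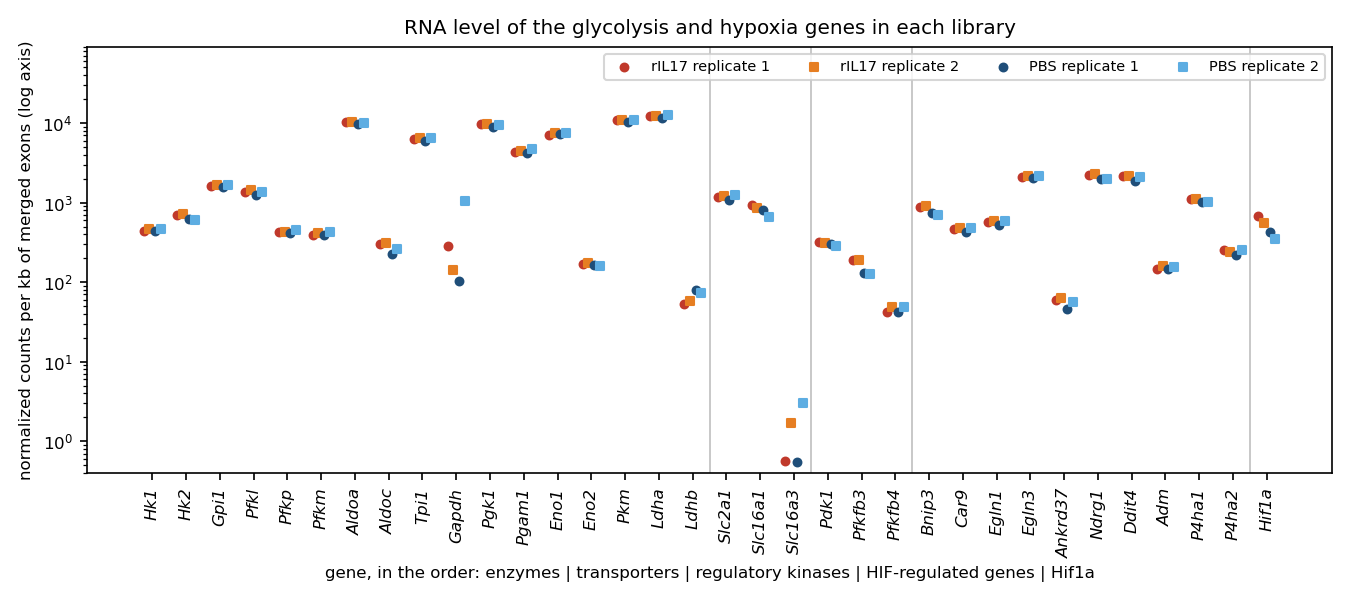
Normalized counts per kb of merged exons, on a log axis, for each of the 34 genes, with 1 point per library and the genes grouped by role. The second gene identifier of Aldoa is not drawn. Ldha, Pkm, Aldoa and Pgk1 lie highest in all 4 libraries, Slc16a3 lies lowest, and Gapdh is the gene whose libraries are most scattered.

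Few of these RNAs were called different between the groups. Of the 33 tested genes, 1 was called at an adjusted p below 0.05 (limma with Benjamini-Hochberg adjustment over all 13479 genes tested), against 103 of 13479 genes, or 0.764%, over the whole table. That gene, Pfkfb3, was higher in rIL17, a direction in which 80 genes, or 0.594%, were called over the whole table. The unadjusted limma p was below 0.05 in 8 of the 33 genes, against 16.0% of all genes tested. Both rIL17 libraries lay above both PBS libraries in 16 of the 33 genes (48.5%), while 25.4% of all genes tested did so. Both lay below in 1 gene, Ldhb, while 24.7% of all genes did so, and in the other 16 the groups overlapped. The median log2 fold change was 0.05 over the 33 genes and -0.002 over all genes tested. As a check of the treatment, Lcn2, a known IL-17 target, had 28833 and 28096 normalized counts in the rIL17 libraries and 8448 and 8498 in the PBS libraries and rose by 1.75 on the log2 scale (limma adjusted p = 0.000314), and Il6, with 81.4 and 71.2 in rIL17 and 8.8 and 8.9 in PBS, rose by 2.96 (limma adjusted p = 0.0165).

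Taken as whole reads, which the steps of the deposited values fit, the libraries held 17511450 to 17970104 reads assigned to genes, and the PBS libraries lay farther apart than the rIL17 libraries. On the first principal component, with 66.71% of the variance, the rIL17 libraries scored -26.35 and -19.41 and the PBS libraries 5.369 and 40.39, so that PBS replicate 2 stood apart. It was low in genes with low transcript GC content: for the 837 tested genes with 40% to 42% GC, PBS replicate 2 lay below PBS replicate 1 by a median log2 difference of -0.32, while the median log2 fold change (rIL17 over PBS) was 0.31, or 0.13 without that library. For the 1447 genes with 50% to 52% GC the median log2 fold change was -0.05. Values after a correction for GC content therefore stand beside each result on the genes with low GC. For the labelled cell type, the epithelial markers Epcam, Krt8, Krt18, Krt19 and Cdh1 were all 5 in the table. They summed to 43227 and 45152 normalized counts in rIL17 and 50872 and 54775 in PBS, most of it Krt8 and Krt18. Krt19 had 1507 and 1738 in rIL17 and 1433 and 1694 in PBS. The other 2 were low, Epcam at 113.6 and 88.3 in rIL17 and 135.4 and 76.6 in PBS. Cdh1 had 143.8 and 139.4 in rIL17 and 208.0 and 180.0 in PBS. Of 8 leukocyte markers 3 were in the table and 1, Cd68, reached 10 normalized counts in any library; the sums were 111.6 and 132.4 in rIL17 and 117.7 and 122.3 in PBS, with Ptprc at 3.0 and 2.0 in rIL17 and 0 in both PBS libraries. Of 7 fibroblast markers 5 were in the table, summing to 2971 and 2967 in rIL17 and 2444 and 2554 in PBS, nearly all of it Pdgfra, with Col1a2 at 2.0 or less in every library. The others, at low counts, lay on both sides: Dcn was at 62.3 and 46.1 in rIL17 and 26.5 and 17.9 in PBS, Col1a1 at 29.2 and 30.1 in rIL17 and 51.0 and 37.8 in PBS, and Pdgfrb at 24.1 and 26.1 in rIL17 and 36.3 and 33.8 in PBS. The part of these differences in the results was not tested.

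Pfkfb3 was the one gene of the list that passed. It encodes a bifunctional enzyme that makes fructose 2,6-bisphosphate, the strongest allosteric activator of phosphofructokinase. Pfkfb3 (ENSMUSG00000026773, mm10 chromosome 2, 11471433 to 11554077, minus strand) had 1442 and 1442 normalized counts in the rIL17 libraries and 982.1 and 942.7 in the PBS libraries. The groups did not overlap, and the gap between them was many times the difference within either group. It rose 1.5-fold, to 1442 ± 0.449 in rIL17 against 962 ± 27.9 in PBS (SD, n = 2 each), a log2 fold change of 0.58 (SE 0.07, 95% confidence interval 0.41 to 0.75, limma adjusted p = 0.0339). With a transcript GC content of 50.2% it stood in a range where the median log2 fold change of all genes was -0.05, and its own log2 fold change was 0.63 after GC correction (limma adjusted p = 0.00472) and 0.55 without PBS replicate 2 (adjusted p = 0.0136). The call was lost where genes with low counts were let into the fit, 20677 genes in all (limma adjusted p = 0.313), with no filter (0.342), and without rIL17 replicate 1 (0.528) or rIL17 replicate 2 (0.339), with the log2 fold change at 0.58 in these 4 fits.

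The other regulatory kinases did not pass. Pfkfb4, which encodes a second isoform of the same bifunctional enzyme, had 203.1 and 237.7 normalized counts in rIL17 and 207.0 and 240.6 in PBS (log2 fold change -0.02, 95% confidence interval -0.37 to 0.33). Its groups overlapped almost fully, and the share of Pfkfb3 in the summed per-kb level of these 2 genes was 82.1% and 79.6% in rIL17 and 75.4% and 71.6% in PBS. Pdk1, encoding a kinase that shuts pyruvate dehydrogenase and so keeps pyruvate out of the mitochondrial cycle, had 2498 and 2439 normalized counts in rIL17 and 2323 and 2220 in PBS (log2 fold change 0.12, limma adjusted p = 0.412). Both rIL17 libraries lay above both PBS libraries by a small step.

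Hif1a had the highest log2 fold change of the 33 tested genes and did not pass. Hif1a (ENSMUSG00000021109, mm10 chromosome 12, 73901375 to 73947530, plus strand) had 4014 and 3218 normalized counts in the rIL17 libraries and 2524 and 2058 in the PBS libraries. Both rIL17 libraries were the higher, but each group spanned a wide range. The means were 3616 ± 563 in rIL17 and 2291 ± 330 in PBS (SD, n = 2 each), 1.58-fold apart (log2 fold change 0.66, SE 0.13, 95% confidence interval 0.33 to 0.98, limma adjusted p = 0.104). Its transcript has 41.3% GC, and its log2 fold change lay above 0.51, the upper quartile of all 837 genes with 40% to 42% GC. After GC correction it was 0.37 and passed (limma adjusted p = 0.0467), where 1.54% of all genes were called higher. Without PBS replicate 2 it was 0.51 (limma adjusted p = 0.0861), and without PBS replicate 1 it was 0.80 and passed (limma adjusted p = 0.00276), in a fit that called 12.9% of all genes higher.

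Among the 17 enzymes of the pathway, 10 had a positive and 7 a negative log2 fold change as deposited, 6 and 11 with upper-quartile scaling, 14 and 3 with GC correction, and 16 and 1 without PBS replicate 2. Limma called 0 of them, against 0.764% of all genes tested, and limma-voom 0, against 1.47%. An unadjusted limma p below 0.05 was found for 3 of the 17 enzymes and for 16.0% of all genes tested. The median log2 fold change of the enzymes was 0.02, and 0.08 after GC correction. Both rIL17 libraries were above both PBS libraries in 7 of 17 (41.2%), against 25.4% of all genes tested. Both were below in 1 of 17, against 24.7% of all genes. The 3 enzymes with the smallest p-values were Hk2, Aldoc and Ldhb. For the 13 enzymes other than Hk2, Aldoc, Gapdh and Ldhb, the 95% confidence intervals of the log2 fold change lay between -0.22 and 0.27.

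Hk2, which traps glucose in the cell as glucose 6-phosphate, had 4194 and 4312 normalized counts in rIL17 and 3714 and 3654 in PBS, 1.15-fold apart (log2 fold change 0.21, SE 0.06, limma adjusted p = 0.18). The groups did not overlap. After GC correction the log2 fold change was 0.26 and passed (limma adjusted p = 0.0455), where 1.54% of all genes were called higher. Hk1, the hexokinase found in most tissues, had 3736 and 3952 in rIL17 and 3780 and 3919 in PBS and overlapped. As shares of the summed per-kb level of both hexokinases, Hk2 made up 61.6% and 60.9% in rIL17 and 58.4% and 57.1% in PBS.

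At phosphofructokinase, the step that the product of Pfkfb3 activates, 0 of 3 genes passed, against 0.764% of all genes tested. Its liver-type subunit gene Pfkl had 9153 and 9502 normalized counts in rIL17 and 8411 and 9143 in PBS (log2 fold change 0.09, limma adjusted p = 0.549). Pfkp, the platelet-type subunit gene, had 5764 and 5748 in rIL17 and 5627 and 5996 in PBS, and Pfkm, the muscle-type one, 1289 and 1385 in rIL17 and 1301 and 1421 in PBS. The order of the 3 subunit genes was the same in every library, with Pfkl at 62.7% and 62.8% of the summed per-kb level in rIL17 and 60.9% and 61.1% in PBS.

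Aldoc and Ldhb are minor isoform genes of their steps. Aldoc, encoding the brain-type aldolase, had 973.1 and 1004 normalized counts in rIL17 and 738.8 and 857.2 in PBS, 1.24-fold apart (log2 fold change 0.31, SE 0.10, limma adjusted p = 0.205; 0.37 after GC correction, limma adjusted p = 0.0553). It made up 2.84% and 2.87% of the per-kb aldolase level in rIL17 and 2.27% and 2.53% in PBS. Its partner Aldoa had 29743 and 30306 normalized counts in rIL17 and 28381 and 29446 in PBS (log2 fold change 0.05), and the second gene identifier under that symbol had 51.3 and 46.1 in rIL17 and 46.1 and 42.8 in PBS. Aldoc thus stayed a small fraction of the aldolase RNA in both groups. Ldhb, the lactate dehydrogenase subunit of heart-type isozymes, was the one gene with both rIL17 libraries below both PBS libraries, at 82.4 and 92.3 normalized counts in rIL17 and 125.6 and 113.4 in PBS. The ratio was 0.731 and the log2 fold change -0.45 (SE 0.17, 95% confidence interval -0.86 to -0.04, limma adjusted p = 0.282). Ldha had 40259 and 40563 in rIL17 and 38612 and 41219 in PBS and overlapped, so that Ldhb held 0.43% and 0.477% of the per-kb lactate dehydrogenase level in rIL17 and 0.681% and 0.576% in PBS.

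The enzymes of the middle and end of the pathway had log2 fold changes near 0. Gpi1, encoding the isomerase after hexokinase, had 10428 and 10623 normalized counts in rIL17 and 10019 and 10762 in PBS. Tpi1 had 17077 and 17574 in rIL17 and 16166 and 17932 in PBS, and Pgam1 had 8527 and 8779 in rIL17 and 8420 and 9194 in PBS. In these 3 genes PBS replicate 1 was the lowest and PBS replicate 2 the highest library, and the rIL17 libraries lay between them. Pgk1 had 21583 and 21535 in rIL17 and 20174 and 21355 in PBS, and Pkm had 54122 and 54837 in rIL17 and 51697 and 54099 in PBS; the counts are per gene and do not separate the M1 and M2 splice forms of pyruvate kinase. Eno2, the neuron-type enolase gene, had 784.1 and 830.4 in rIL17 and 771.2 and 755.7 in PBS. Pgk1, Pkm and Eno2 were higher in both rIL17 libraries, by log2 fold changes of 0.05, 0.04 and 0.08 that did not pass.

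**Figure D2:**
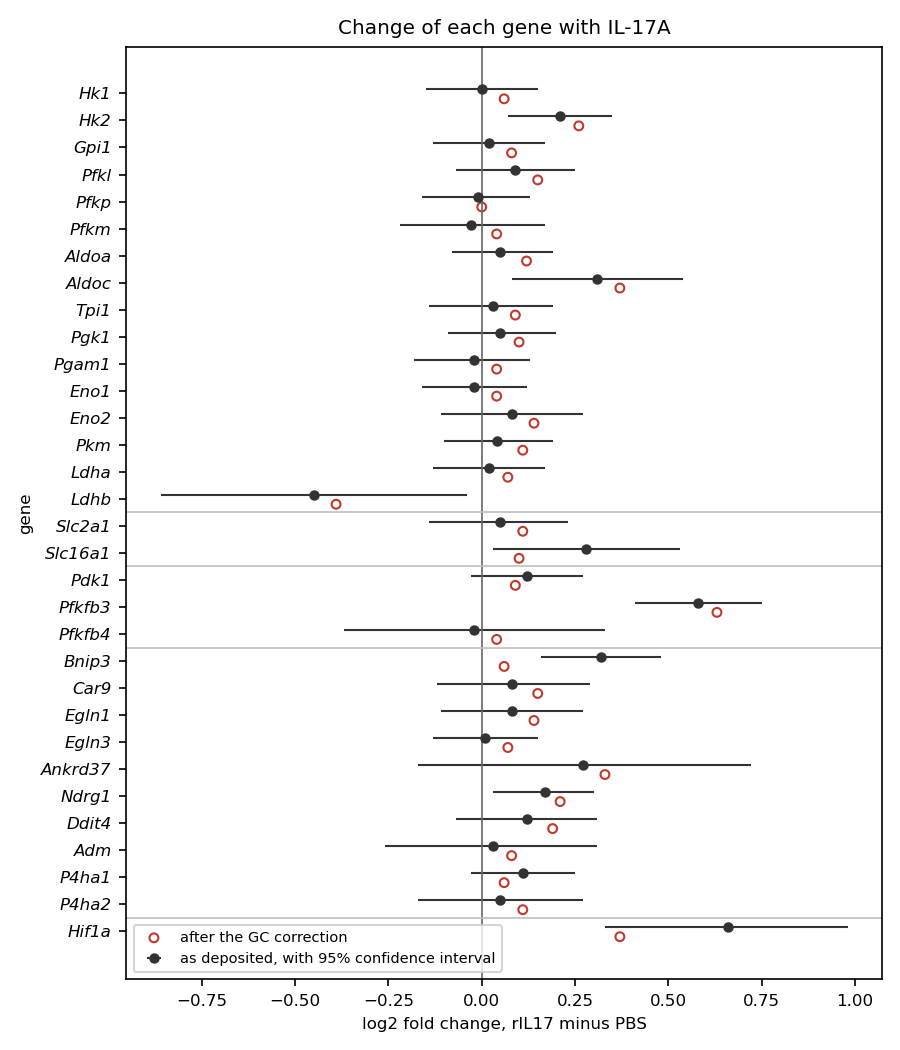
Log2 fold change (rIL17 minus PBS) of 32 tested genes, grouped by role, with 95% confidence intervals as bars (filled points, as deposited) and the value after GC correction (open points); Gapdh, whose interval runs from -3.07 to 1.65, is not drawn. The interval of Pfkfb3 lies from 0.41 to 0.75, those of most enzymes cross 0, and the open points of Hif1a, Bnip3 and Slc16a1 lie left of the filled ones.

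Gapdh and Eno1 have near-identical copies elsewhere in the genome, which can share or take reads, so their counts carry an uncertainty. Whether this bears on the scatter of Gapdh was not tested. Gapdh, encoding the dehydrogenase of the pathway's oxidation step, had 1180 and 582.7 normalized counts in rIL17 and 421.9 and 4374 in PBS. The highest library exceeded the lowest 10.4-fold, where none of the other 32 tested genes exceeded 1.95-fold. Its log2 fold change of -0.71 (95% confidence interval -3.07 to 1.65, limma adjusted p = 0.764) turned to 0.97 without PBS replicate 2 and was -2.40 without PBS replicate 1, where it passed (limma adjusted p = 0.00195) as did 16.0% of all genes. The annotation holds 77 copies at 95% identity or more, 62 of them in the table, which cover 88.0% of the Gapdh transcript. One of them, Gm13394, alone had 15321 and 16286 normalized counts in rIL17 and 14619 and 15206 in PBS, more than Gapdh itself in every library. The copies alone summed to 15858 and 16837 in rIL17 and 15121 and 15988 in PBS. Summed over Gapdh and its copies the values were 17038 and 17420 in rIL17 and 15543 and 20362 in PBS. These sums with Gapdh overlapped between the groups, with PBS replicate 2 highest.

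Eno1 had 38444 and 39676 normalized counts in rIL17 and 38741 and 40424 in PBS, beside 2 abundant near-identical copies. Eno1b had 14104 and 15177 in rIL17 and 14499 and 15817 in PBS, and Gm4735 had 11852 and 12267 in rIL17 and 12071 and 13218 in PBS. Unlike the Gapdh family, the Eno1 family kept its proportions across the 4 libraries, and Eno1 with its 3 copies summed to 64668 and 67392 in rIL17 and 65523 and 69698 in PBS. The processed pseudogene Gm6560, a copy of Pkm, held 435.3 and 474.4 in rIL17 and 396.4 and 462.4 in PBS, and the copies of Gpi1, Pgk1, Pgam1, Tpi1, Ldha, Ldhb and Bnip3 held at most 143.2 in any library. Exons also overlap other genes. On the opposite strand, Ankrd37 shares 22.7% of its exon length with Lrp2bp, Gpi1 11.5% with Gm26762 and Car9 9.3% with Gm12454. These 3 partners had low counts. More abundant partners on the opposite strand were Ufsp2, with 3.7% of Ankrd37, and Pitrm1, with 5.6% of Pfkp. Ufsp2 had 669.5 and 587.7 normalized counts in rIL17 and 582.8 and 490.2 in PBS. Pitrm1 had 2174.4 and 2073.0 in rIL17 and 2356.7 and 2348.8 in PBS. On the same strand, Pkm shares 15.3% with Gm49759 and Pfkm 10.2% with Gm26513. The strand setting of the counting is not given in the sources used here, and the part of these overlaps in the counts was not tested.

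**Figure D3:**
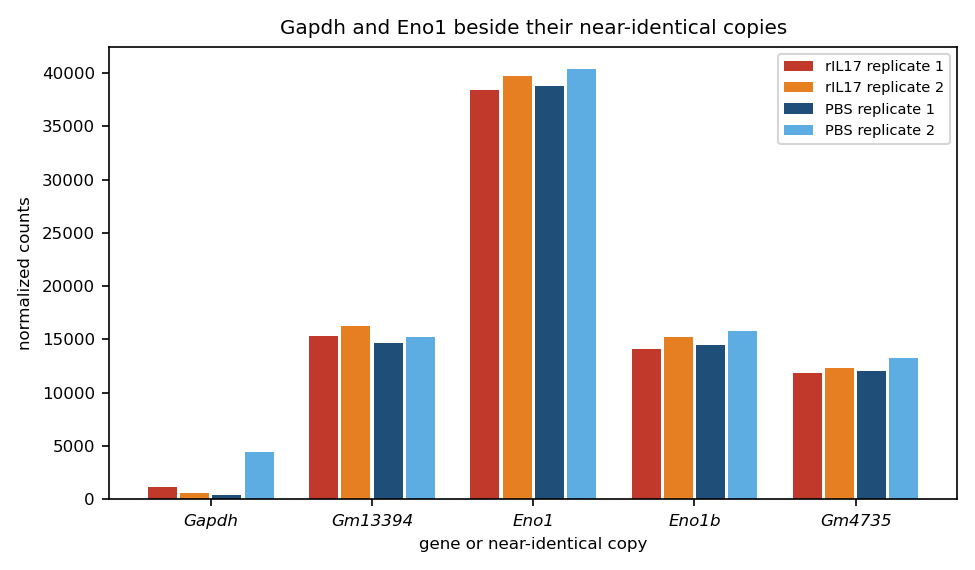
Normalized counts of Gapdh, of its copy Gm13394, of Eno1 and of its copies Eno1b and Gm4735, as bars from 0 with 1 bar per library. Gapdh is high in PBS replicate 2 alone (4374) while Gm13394 lies between 14619 and 16286 in all 4 libraries, and the 3 genes of the Eno1 family keep the same order in each.

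Of the transporters, Slc2a1, the gene of the glucose transporter GLUT1, had 4184 and 4255 normalized counts in rIL17 and 3830 and 4347 in PBS and overlapped (log2 fold change 0.05, 95% confidence interval -0.14 to 0.23). Slc16a1 had 4098 and 3735 in rIL17 and 3544 and 2931 in PBS. Its groups did not overlap, with PBS replicate 2 the lowest library. The log2 fold change was 0.28 (SE 0.10, limma adjusted p = 0.267); the transcript has 42.9% GC, and after GC correction the value was 0.10 (limma adjusted p = 0.366).

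Every one of the 10 HIF-regulated genes had a positive log2 fold change as deposited, all of them small, with 8 of 10 positive under upper-quartile scaling, total-count scaling and limma-voom, where Egln3 and Adm were negative. Limma called 0 of 10, against 0.764% of all genes tested, and limma-voom 0, against 1.47%. An unadjusted limma p below 0.05 was found for 2, Bnip3 and Ndrg1, near the 16.0% of all genes. The log2 fold changes ran from 0.01 to 0.32 with a median of 0.10. After GC correction they ran from 0.06 to 0.33 with a median of 0.13. Both rIL17 libraries lay above both PBS libraries in 5 of the 10, against 25.4% of all genes tested. Both lay below in 0, against 24.7% of all genes, and in the other 5 the groups overlapped. By library, the median deviation of these 10 genes from their 4-library means was 0.0496 and 0.0612 in rIL17 and -0.12 and 0.0204 in PBS on the log2 scale. The rIL17 libraries thus lay well above PBS replicate 1 and slightly above PBS replicate 2, and without PBS replicate 1 the signs were 7 positive and 3 negative (Egln1, Egln3 and P4ha2).

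Bnip3, encoding a mitochondrial protein that promotes mitophagy, had the largest log2 fold change of the 10 as deposited, with 2002 and 2023 normalized counts in rIL17 and 1652 and 1576 in PBS. The groups were well apart, at 2013 ± 14.4 in rIL17 and 1614 ± 53.8 in PBS (SD, n = 2 each), 1.25-fold. The log2 fold change was 0.32 (SE 0.07, 95% confidence interval 0.16 to 0.48, limma adjusted p = 0.105). Its transcript has 41.6% GC, the median of all 837 genes with 40% to 42% GC was 0.31, and after GC correction the value for Bnip3 was 0.06 (limma adjusted p = 0.786).

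Ndrg1, a differentiation-related gene induced by hypoxia and cell stress, had 14551 and 14978 normalized counts in rIL17 and 13223 and 13100 in PBS (log2 fold change 0.17, limma adjusted p = 0.232; 0.21 after GC correction). Ddit4, the gene of the mTORC1 inhibitor REDD1, had 3751 and 3834 in rIL17 and 3256 and 3724 in PBS (log2 fold change 0.12). P4ha1, which encodes a subunit of collagen prolyl hydroxylase, had 4509 and 4515 in rIL17 and 4159 and 4207 in PBS (log2 fold change 0.11, limma adjusted p = 0.4). In these 3 genes both rIL17 libraries were higher by a small step, and none passed. Ankrd37, a short ankyrin-repeat gene induced by HIF, had 92.5 and 97.3 in rIL17 and 71.6 and 85.5 in PBS, with a wide interval (log2 fold change 0.27, 95% confidence interval -0.17 to 0.72). After GC correction its value of 0.33 was the highest of the 10.

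The remaining HIF-regulated genes overlapped between the groups. Egln3 and Egln1 encode the prolyl hydroxylases PHD3 and PHD2, which act on HIF-1 alpha itself and are induced by it. Egln3 had 5527 and 5674 normalized counts in rIL17 and 5430 and 5695 in PBS, and Egln1 had 2049 and 2105 in rIL17 and 1857 and 2082 in PBS. Car9, the gene of carbonic anhydrase IX and a marker of hypoxic tumor tissue, had 1086 and 1101 in rIL17 and 974.3 and 1093 in PBS (log2 fold change 0.08, 95% confidence interval -0.12 to 0.29). Adm, encoding the vasodilator peptide adrenomedullin, had 239.3 and 256.7 in rIL17 and 239.4 and 247.6 in PBS, and P4ha2, a second collagen prolyl hydroxylase gene, had 1566 and 1501 in rIL17 and 1370 and 1600 in PBS. For Car9, Egln1, Egln3 and P4ha2 the overlap came from PBS replicate 2 alone, while PBS replicate 1 was the lowest library. In Egln3 and P4ha2, PBS replicate 2 was the highest library.

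**Figure D4:**
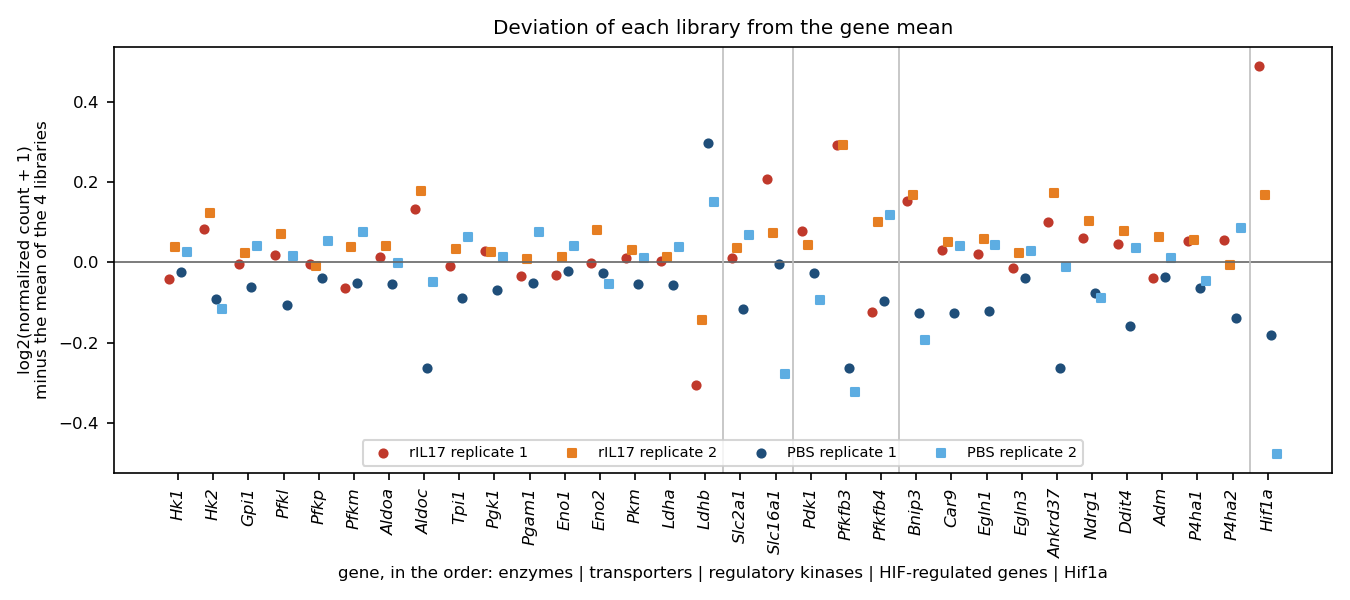
Deviation of each library from the mean of the 4 libraries, on the log2(normalized count + 1) scale, for 32 tested genes grouped by role, with 1 point per library (Gapdh is not drawn). Pfkfb3, Hif1a and Bnip3 have both rIL17 points above 0 and both PBS points below it, Ldhb the reverse, and most enzymes have PBS replicate 1 lowest.

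Fold changes were higher at low GC content, in these genes and over the whole table. Hif1a, Bnip3 and Slc16a1 were the 3 with a transcript GC content below 45%; their median log2 fold change was 0.32, and 0.10 after GC correction. The 30 other tested genes had a median of 0.05. Of all 3445 tested genes below 45% GC, 52.9% had both rIL17 libraries above both PBS libraries, and their median was 0.23. Across 32 genes of the list, without Gapdh, Pearson's r between log2 fold change and GC content was -0.52, and across 13470 tested genes with a GC value it was -0.42; these correlations are across genes that share 4 libraries and are given as description.

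**Figure D5:**
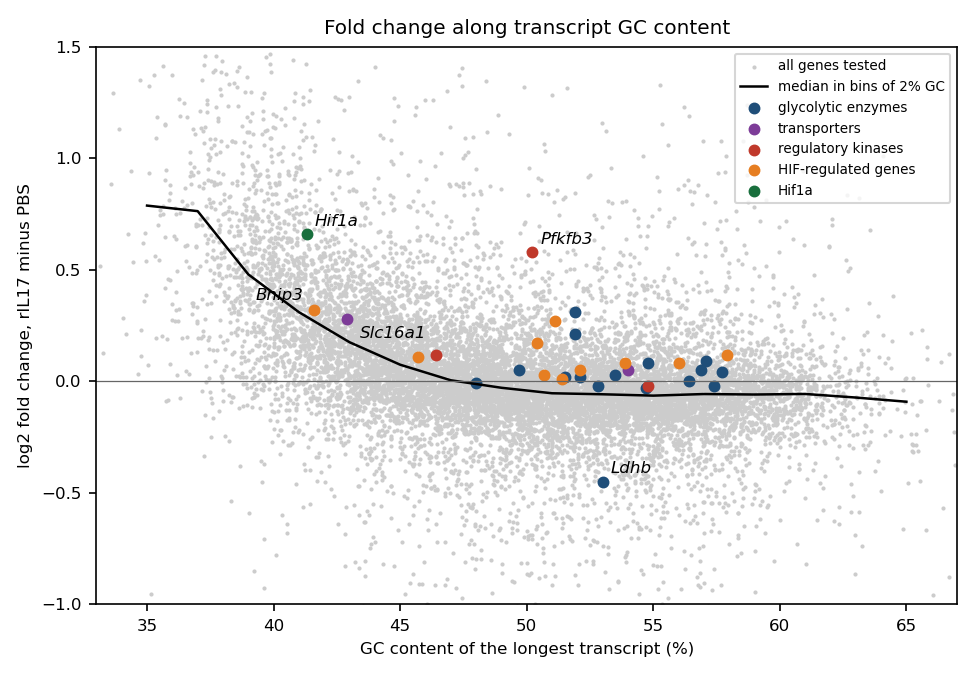
Log2 fold change (rIL17 minus PBS) against the GC content of the longest transcript for all genes tested (grey), with the median in bins of 2% GC (line) and 32 genes of the list colored by role; Gapdh and genes beyond the axes are not drawn. Bnip3 and Slc16a1 lie near the line, Hif1a lies above it, and Pfkfb3 lies far above it at 50.2% GC.

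Wider lists of the same pathways, chosen from their known roles and with earlier results of these data known, gave few calls. Of 33 further hypoxia-induced genes 26 were tested. Both rIL17 libraries lay above both PBS libraries in 14 of them (53.8%), against 25.4% of all genes tested. Both lay below in 0, against 24.7% of all genes. The unadjusted limma p was below 0.05 in 8 of the 26, against 16.0% of all genes. After adjustment limma called 1 of the 26, against 0.764% of all genes. That gene was Ero1l, encoding the thiol oxidase of the endoplasmic reticulum, with 8915 and 8398 normalized counts in rIL17 and 5608 and 4643 in PBS. It rose by 0.76 on the log2 scale (SE 0.10, 95% confidence interval 0.53 to 0.99, limma adjusted p = 0.0352), and by 0.50 after GC correction (limma adjusted p = 0.00247), its transcript having 41.6% GC. Its call, like that of Pfkfb3, was lost with the 2 wider filters (limma adjusted p = 0.37 and 0.35) and without rIL17 replicate 1 (0.522) or rIL17 replicate 2 (0.298). Next by p came Bhlhe40, a transcriptional repressor gene, with 1001 and 1103 normalized counts in rIL17 and 831.0 and 802.5 in PBS. Its log2 fold change was 0.36 (limma adjusted p = 0.13). After GC correction it was 0.40 (limma adjusted p = 0.0443), where 1.54% of all genes were called higher. The median of the 26 genes was 0.09, and 0.07 after GC correction.

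Of 13 genes of the HIF machinery 10 were tested, with a median log2 fold change of 0.09. Limma called 0 of these 10, against 0.764% of all genes tested, and limma-voom 0, against 1.47%. The unadjusted limma p was below 0.05 in 0 of them, against 16.0% of all genes. Epas1 and Hif3a, which encode the other alpha subunits, were listed but not found by symbol among the genes of the table. The smallest p-values belonged to Cul2 and Eloc, which encode parts of the ubiquitin ligase that acts with the von Hippel-Lindau protein. Cul2 had 613.2 and 591.7 normalized counts in rIL17 and 542.6 and 331.1 in PBS (log2 fold change 0.51, limma adjusted p = 0.326), and Eloc had 1526 and 1401 in rIL17 and 1303 and 596.6 in PBS (0.73, limma adjusted p = 0.338). In both, PBS replicate 2 was far the lowest library, the transcripts have 40.6% and 38.2% GC, and after GC correction the log2 fold changes were 0.16 and 0.15.

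Of 33 further glycolytic and pyruvate genes 22 were tested, with 14 positive and 8 negative log2 fold changes and a median of 0.01. Limma called 0 of the 22, against 0.764% of all genes tested, and limma-voom 0, against 1.47%. The unadjusted limma p was below 0.05 in 2 of the 22, against 16.0% of all genes. Slc2a3, the gene of the high-affinity glucose transporter GLUT3, had 88.5 and 85.2 normalized counts in rIL17 and 52.0 and 58.7 in PBS (log2 fold change 0.64, 95% confidence interval 0.18 to 1.11, limma adjusted p = 0.198; 0.64 after GC correction). Gpd2, of the mitochondrial glycerol phosphate shuttle, had 2666 and 2521 in rIL17 and 2241 and 1833 in PBS (log2 fold change 0.36, limma adjusted p = 0.188; 0.33 after GC correction). In both genes the groups did not overlap. Of the 7 pentose phosphate enzymes all were tested, 2 had positive and 5 negative log2 fold changes, and the median was -0.02. Limma called 0 of the 7, against 0.764% of all genes tested, and limma-voom 0, against 1.47%. The unadjusted limma p was below 0.05 in 1 of the 7, near the 16.0% of all genes. Rpe, encoding an epimerase of that pathway, had a log2 fold change of 0.36 (limma adjusted p = 0.192) that was -0.12 after GC correction, and Rpia, encoding its partner isomerase, had -0.22 (limma adjusted p = 0.348).

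Of 6 glucose-sensing factors 5 were tested. Limma called 0 of these 5, against 0.764% of all genes tested, and limma-voom 0, against 1.47%. The unadjusted limma p was below 0.05 in 2 of the 5, against 16.0% of all genes. Txnip, which encodes a glucose-induced inhibitor of glucose uptake, had 2779 and 2781 normalized counts in rIL17 and 2411 and 2311 in PBS (log2 fold change 0.24, SE 0.06, limma adjusted p = 0.167). Myc, encoding a transcription factor that raises glycolytic genes, had 3396 and 3552 in rIL17 and 3844 and 3961 in PBS (log2 fold change -0.17, limma adjusted p = 0.266). Txnip was thus higher and Myc lower in both rIL17 libraries without passing.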

How the data were processed

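RNA from 4T1 cells was sequenced in 4 libraries, 2 after recombinant IL-17A and 2 after PBS. A directional kit was used on total RNA, per the labels' protocols. Per the submitters' processing notes, CASAVA, HISAT2 2.0.5, featureCounts 1.5.0-p3 and the build mm10 were used; the annotation release, strand setting and scaling tool were not given in the sources used here. The deposited table holds a normalized signal per gene: in each library 100.0% of the deposited values were within 0.001 of a whole multiple of 1 step (1.0053 and 1.0029 in rIL17, 0.9811 and 0.9944 in PBS), so they were handled as gene counts that the authors had divided by 1 factor per library, here termed normalized counts. Taken as whole reads, an inference from the steps, the values gave 17911079 and 17715520 reads in rIL17 and 17970104 and 17511450 in PBS. At this depth 3 reads, the floor for a count of 0, equal about 3 normalized counts.

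Genes with a mean of at least 10 over the 4 libraries (13479 of 21840) were tested with limma 3.58.1 (R 4.3.3), with a mean-variance trend, on log2(normalized count + 1). Treatment was the single term, and p-values were adjusted over all of them (Benjamini-Hochberg); genes were called at an adjusted p below 0.05. The filter ignores group, so that no gene entered through the group where it was high. Fold changes on this scale understate those of low genes. The genes, lists, filter and tests were chosen with earlier results of these data known. Genes named are all 34, of each wider list the called genes and the 2 with the smallest p, and Lcn2 and Il6; Gm13394, Eno1b and Gm4735 were named after their values were seen. Symbols were matched for 21819 of 21840 rows, with coordinates from GENCODE M21. GC correction was a loess (span 0.5) of each library's deviation from the gene mean on GC content of the longest transcript (99.9% of genes). Copies were found with blastn 2.17.0 (at least 95% identity over 200 bases of transcript). Levels per kb divide by merged exon length. The fit was tested on simulated data. Alternatives were 3 other filters, 2 scalings, a pseudocount of 0.1, limma-voom, each library left out, the replicate number as a block, GC correction alone and with that block, mitochondrial genes left out and an adjusted p below 0.01. Robust shrinkage, and Gapdh left out of the enzyme median, were added after seeing the data.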

Additional observations from a re-analysis of the deposited data

How the results depend on the processing

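Each alternative was set against the limma fit as reported. Over all genes 103 were called, and 1 of the 34 genes. With genes of a mean of at least 1 in 1 group let in, and with no filter, limma called 0 genes and 0 of the 34 (unadjusted p below 0.05 in 2642 and 2739 genes and in 8 of the 34 under either filter); the fits then tested 20677 and 21840 genes. The stricter filter, the pseudocount of 0.1 and leaving out mitochondrial genes gave 101, 100 and 145 genes. More were called with total-count scaling (163), robust shrinkage (169, chosen after seeing the data), upper-quartile scaling (174), limma-voom (198), GC correction (321, of which 207 higher, against 80 of 103 as reported) and GC correction with the replicate number as a block (431); fewer at an adjusted p below 0.01 (7, and 0 of the 34). GC correction called 3 of the 34 (Hk2, Pfkfb3 and Hif1a) and, with the block, 4 (those and Aldoc). The replicate numbers give only 2 pairs, whose deviations correlated at 0.1258, with no label tying them; the block alone called 1124 genes and 4 of the 34 (Slc16a1, Pfkfb3, Bnip3 and Hif1a). With each library left out, where a lone library is assumed to vary like the other group, calls ran from 1 to 2158 genes and from 0 to 6 of the 34: 0 without either rIL17 library, 1 without PBS replicate 2 and 6 without PBS replicate 1 (Hk2, Slc16a1, Pfkfb3, Bnip3 and Hif1a higher, Gapdh lower). The enzyme median of 0.02 was 0.08 with GC correction, with or without the block, and -0.03 with upper-quartile scaling, and ran from -0.03 to 0.07 with a library left out; the HIF-regulated median of 0.10 ran from 0.01 to 0.16. Some signs turned, of values within 0.08 of 0 except those of Rpe (0.36) and Gapdh (-0.71). With GC correction, with or without the block, Pfkm, Pfkfb4, Eno1 and Pgam1 became 0.04, Hk1 0.06 and Rpe -0.12. With limma-voom and with total-count scaling, Tpi1 became -0.005, Egln3 -0.02, Ldha -0.01, Gpi1 -0.01 and Adm -0.004. Leaving out mitochondrial genes gave Ldha -0.001, Egln3 -0.01 and Gpi1 -0.0005. Upper-quartile scaling gave Slc2a1 -0.001, Ldha -0.03, Egln3 -0.04, Pkm -0.01, Tpi1 -0.02, Adm -0.02 and Gpi1 -0.03. With a library left out, Hk1 ran from -0.04 to 0.04, Gpi1 from -0.03 to 0.07, Pfkp from -0.06 to 0.03, Pfkm from -0.09 to 0.04, Tpi1 from -0.05 to 0.10, Gapdh from -2.4 to 0.97, Pgam1 from -0.09 to 0.04, Eno1 from -0.05 to 0.01, Ldha from -0.03 to 0.07, Slc2a1 from -0.04 to 0.14, Pfkfb4 from -0.14 to 0.09, Egln1 from -0.004 to 0.16, Egln3 from -0.02 to 0.04, Adm from -0.03 to 0.08 and P4ha2 from -0.06 to 0.16. The causes were not tested. Count models planned for raw counts were not run, since the values are normalized. Depth limits Slc16a3, which lay near 3 reads in 1 library of each group.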
